A study of Rattus norvegicus with 30 samples.

Results

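Regulators of G-protein signalling (RGS proteins) were followed across 30 RNA-Seq libraries of rat cortical neuron cultures. The 10 genes were taken by symbol from the 32883 genes of the table, namely Rgs4, Rgs2, Rgs3, Rgs8, Rgs16, Rgs7, Rgs10, Rgs12, Rgs14 and Rgs17. The set was chosen by measured values, since it was put together around the higher Rgs4 counts of αSyn 3K cultures to see whether the rest of the family moved alike, so every 3K against EV value of these genes is a description without a test. Cultures received AAV9 carrying human αSyn 3K, a toxic form of α-synuclein with added lysines in its repeats, or the empty vector (EV), on day 5 in vitro. RNA was taken 6, 12 and 19 d later, with 5 libraries of each vector at each day. All library titles also carry the word PBS. Expression ran from the CAG promoter, which is active in many cell types and not in neurons alone, so glia in the cultures could also carry the vector. The sources do not say whether the 5 libraries of a group came from separate cultures, so errors and p-values measure the spread between these libraries, which may be technical.

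RGS proteins end G-protein signals. A receptor loads the Gα subunit with GTP, Gα and Gβγ then act on their effectors, and the RGS domain speeds the hydrolysis of that GTP so that the subunits join again. The small R4 proteins (Rgs2, Rgs3, Rgs4, Rgs8 and Rgs16 here) act on Gαi/o and Gαq, with Rgs2 known for its preference for Gαq. The R7 protein Rgs7 works as a complex with the Gβ5 subunit, the R12 group comprises Rgs10 and the scaffolds Rgs12 and Rgs14, and Rgs17 of the RZ group acts on Gαz and its relatives. In the cortex Rgs4 is an abundant neuronal transcript, and Rgs2 is known in rat brain as a gene induced by neuronal activity.

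Each library held between 4747019 and 7035869 reads assigned to genes (median 6000988). The αSyn 3K transcript averaged 4203, 8650 and 24755 normalized counts in 3K cultures at days 6, 12 and 19, against 135, 159 and 211 in EV cultures, as the labels state. Normalized counts are reads divided by a size factor of each library, and log2 fold changes are on the log2(normalized count + 1) scale. A gene is said to pass the threshold where its limma adjusted p over 12911 genes was under 0.05. By that rule 0.225% of genes differed between 3K and EV at day 6, 0.434% at day 12 and 7.86% at day 19 (3.78% higher and 4.08% lower). At day 19 there were 488 higher and 527 lower genes, and 631 higher and 376 lower ones where libraries were scaled to equal totals. All 12 neuron markers listed were detected, and their summed normalized counts at day 19 ran from 30452.5 to 32094 in 3K cultures and from 33004 to 34526 in EV cultures, with 3 markers lower in 3K and 0 higher. In such bulk RNA, fewer cells of a type and less RNA per cell cannot be told apart.

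Rgs4 was higher in 3K than in EV cultures at every day. Rgs2 lay above EV with it, Rgs16 had a like difference at days 12 and 19 with overlapping libraries, Rgs14 lay below EV at day 19, and most of the family did not separate the vectors. Of the 10 genes, all of which were measured and passed the filter on low counts, 1 passed the threshold at day 6 (Rgs4), 1 at day 12 (Rgs4) and 3 at day 19, where Rgs4 and Rgs2 were higher and Rgs14 was lower. The libraries of the 2 vectors did not overlap for 2 genes at day 6 (Rgs4 and Rgs2), 2 at day 12 (Rgs4 and Rgs10) and the same 3 at day 19, beside 1.29%, 2.63% and 6.65% of all genes tested. Since Rgs4 was chosen for this contrast, nothing is read from these counts. The median log2 fold change of the 10 genes was 0.02 at day 6, 0.06 at day 12 and 0.03 at day 19, close to the median over all genes (−0.002, 0.002 and −0.003).

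**Figure D1:**
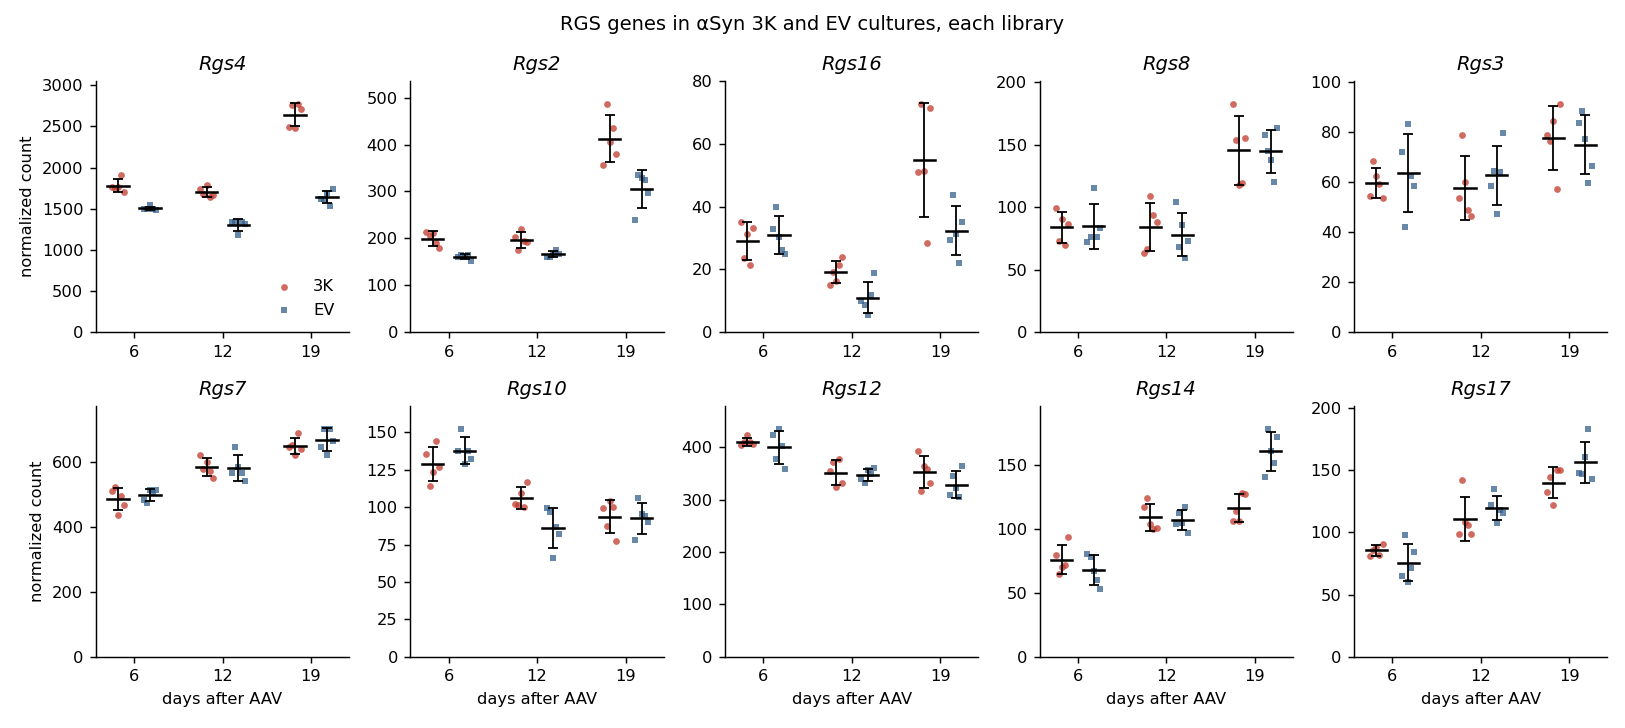
Normalized counts of the 10 RGS genes (vertical axes, each starting at 0) against days after AAV, with 3K libraries as red circles and EV libraries as blue squares. Horizontal bars are means and error bars SD over 5 libraries. Rgs4 in 3K libraries lies above EV at every day, and at day 19 the 5 Rgs14 values of 3K lie between 106 and 128, below all EV values.

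The 300 bases around the start of Rgs4, Rgs2 and Rgs14 are shown because these 3 genes passed the threshold between 3K and EV at day 19. They are also the only ones of the 10 genes whose windows in RefSeq (GRCr8) begin at the outermost annotated start. Each window has 250 bases before the start and 50 after it. Capitals mark matches, on either strand, to the TATA box (TATAAA), the short cyclic AMP response letters (TGACG), the full cyclic AMP response element (TGACGTCA, which contains the short letters) and AP-1 (TGANTCA).
Rgs4, chr13:84475835-84476134, minus strand: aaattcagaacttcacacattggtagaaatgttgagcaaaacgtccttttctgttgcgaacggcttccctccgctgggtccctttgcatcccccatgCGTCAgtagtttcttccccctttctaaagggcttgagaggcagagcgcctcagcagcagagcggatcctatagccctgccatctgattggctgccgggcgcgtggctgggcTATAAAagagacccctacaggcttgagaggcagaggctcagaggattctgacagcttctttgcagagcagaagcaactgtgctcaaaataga
Rgs2, chr13:58352617-58352916, minus strand: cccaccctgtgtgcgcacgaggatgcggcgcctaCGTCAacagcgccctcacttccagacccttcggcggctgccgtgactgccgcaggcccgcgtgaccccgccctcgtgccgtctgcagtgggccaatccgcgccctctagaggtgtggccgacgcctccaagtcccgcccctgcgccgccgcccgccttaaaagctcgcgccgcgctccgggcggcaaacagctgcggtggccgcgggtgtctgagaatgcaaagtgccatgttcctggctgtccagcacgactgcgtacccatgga
Rgs14, chr17:9268184-9268483, minus strand: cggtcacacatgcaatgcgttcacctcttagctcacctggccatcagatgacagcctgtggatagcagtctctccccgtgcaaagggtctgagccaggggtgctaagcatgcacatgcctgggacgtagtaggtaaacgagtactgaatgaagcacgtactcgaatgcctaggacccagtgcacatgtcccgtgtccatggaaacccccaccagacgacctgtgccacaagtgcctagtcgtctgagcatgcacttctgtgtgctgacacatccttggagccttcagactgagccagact
The Rgs4 window holds TATAAA and the short cyclic AMP response letters. Of these 4 motifs the Rgs2 window holds the short letters alone, and the Rgs14 window holds none. The CCAAT box (CCAAT) and the GC box (GGGCGG) were also searched and are not capitalised. CCAAT was found in 4 of the 10 genes (Rgs2, Rgs4, Rgs8 and Rgs16) and in 37.5% of promoters, and GGGCGG in 7 (Rgs2, Rgs3, Rgs7, Rgs10, Rgs12, Rgs16 and Rgs17) and in 33.1%. The Rgs14 window holds neither. Over the 10 genes the short letters were found in 3 (Rgs2, Rgs3 and Rgs4) and in 21.2% of 33469 promoters of the same length, TATAAA in 2 (Rgs3 and Rgs4) and in 14.2%, AP-1 in 2 (Rgs12 and Rgs17) and in 7.33%, and the full element in 0 and in 1.83%. A match is a string of letters in the window, not a bound site.

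Among the R4 genes, Rgs4 itself had 1769, 1750.1, 1761, 1909.9 and 1706 normalized counts in 3K cultures at day 6, against 1492, 1499, 1544, 1495 and 1486 in EV cultures. At day 12 it had 1739, 1678, 1794, 1638 and 1665 in 3K cultures and 1344, 1339, 1179, 1334 and 1309.8 in EV cultures. At day 19 it had 2493, 2761, 2487, 2775 and 2711 in 3K cultures and 1615, 1624, 1689, 1538 and 1735 in EV cultures. The lowest 3K library lay above the highest EV library at all 3 days. The mean was higher in 3K by 18.4% at day 6, 30.9% at day 12 and 61.3% at day 19, with log2 fold changes of 0.24, 0.39 and 0.69 (SE 0.04 each), so the difference at day 19 exceeded that at day 6 by 0.45 (SE 0.06) on the log2 scale.

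Rgs2, the Gαq-preferring R4 protein, was next. It had 213, 205, 212, 189 and 178 normalized counts in 3K cultures at day 6, against 159.6, 165, 162, 165 and 152 in EV cultures, without overlap. At day 12 the values were 202, 175, 221, 193 and 192 in 3K cultures and 159, 160.0, 167, 175 and 167 in EV cultures, so that 4 of 5 3K libraries lay above every EV library. At day 19 they were 357, 487, 406, 436 and 379 in 3K cultures and 238, 335, 329, 324 and 297 in EV cultures, again without overlap. The log2 fold changes were 0.31, 0.24 and 0.44 (SE 0.08 each) at days 6, 12 and 19. In contrast to Rgs4, the Rgs2 difference at day 19 exceeded that at day 6 by only 0.13 (SE 0.12).

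Rgs16, an R4 protein with few reads in these cultures, differed at the later days with a wide spread. At day 6 it had 35.2, 23.6, 31.2, 21.5 and 33.4 normalized counts in 3K cultures and 32.9, 40.1, 30.2, 26.2 and 24.9 in EV cultures, which overlapped. At day 12 the values were 15.1, 19.1, 16.3, 21.4 and 23.8 in 3K cultures, against 10.0, 8.70, 5.61, 11.9 and 19.0 in EV cultures. At day 19 they were 51.1, 72.8, 51.3, 28.5 and 71.4 in 3K cultures, against 29.5, 43.6, 31.4, 22.1 and 35.1 in EV cultures. At both of these days 1 library set the overlap, replicate 5 of EV at day 12 and replicate 4 of 3K at day 19. The log2 fold changes were −0.09, 0.82 and 0.71 (SE 0.25 each). Rgs16 did not pass the threshold at any day. The call changed at day 12 without that EV library (log2 fold change 1.03) and at day 19 without that 3K library (0.92). At day 19 it also changed with edgeR and with DESeq2 on the reads and with a pseudocount of 5. Those libraries are the ones that set the overlap, and the genes were chosen for this contrast. Nothing is therefore read from the changed calls.

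The other R4 genes did not separate the vectors. Rgs8, whose protein acts on Gαi/o and Gαq and is known from Purkinje cells, averaged 145 ± 27.5 normalized counts in 3K cultures and 145 ± 17.0 in EV cultures at day 19 (SD, n = 5 each), and its log2 fold changes were −0.0036, 0.10 and −0.0034 (SE 0.16 each) at days 6, 12 and 19. Rgs3 averaged 77.4 ± 12.8 in 3K cultures and 74.9 ± 11.9 in EV cultures at day 19, with log2 fold changes of −0.06, −0.13 and 0.05 (SE 0.16 each). Both genes overlapped between vectors at every day. In the RefSeq annotation Rgs8 and Rgs16 are neighbouring coding genes on chromosome 13, which holds 5 of the 10 genes (Rgs2, Rgs4, Rgs7, Rgs8 and Rgs16). Thus Rgs16 and Rgs8 lie side by side, with day 19 log2 fold changes of 0.71 and −0.0034.

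**Figure D2:**
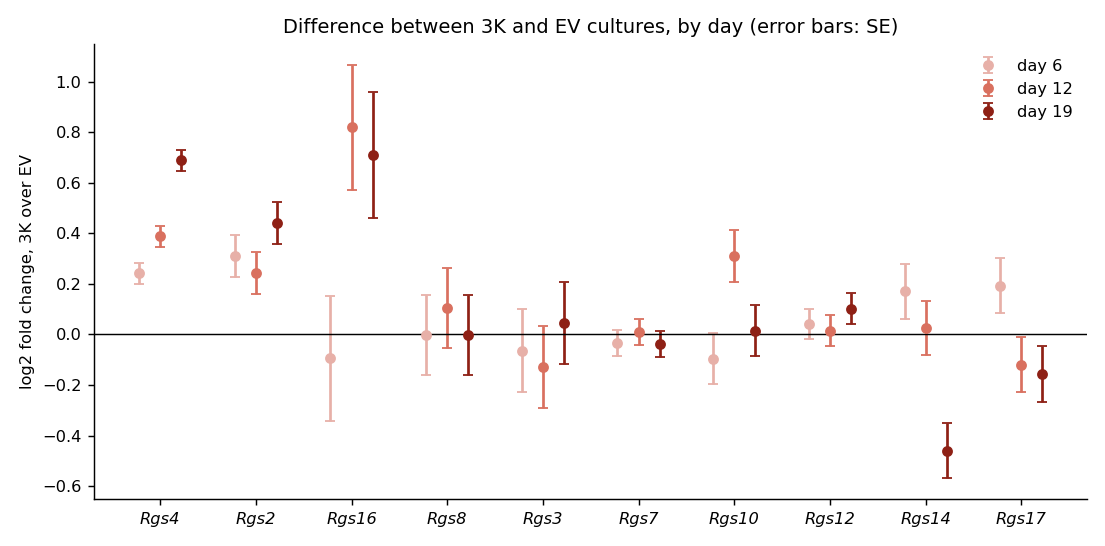
Log2 fold change of 3K over EV (vertical axis) for the 10 RGS genes (horizontal axis) at days 6, 12 and 19, light to dark red, from limma on 30 libraries. Error bars are SE. Rgs4 stands at 0.24, 0.39 and 0.69, Rgs2 and Rgs16 are above 0 at day 19, Rgs14 is at −0.46 at day 19, and most other values lie within 0.2 of 0.

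Rgs14, a scaffold that also binds Ras proteins and inactive Gαi and is known in mouse for restraining synaptic plasticity in hippocampal area CA2, moved the other way. It had 79.5, 64.6, 69.7, 72.0 and 93.5 normalized counts in 3K cultures at day 6 and 80.2, 77.6, 66.9, 59.9 and 52.8 in EV cultures. At day 12 it had 117, 124, 103, 99.8 and 101 in 3K cultures and 104, 112, 104, 117 and 96.3 in EV cultures. At day 19 it had 106, 114, 106, 128 and 127 in 3K cultures, against 141, 178, 160.4, 151 and 172 in EV cultures. The vectors overlapped at days 6 and 12 and were apart at day 19, when every 3K library was below every EV library. The log2 fold changes were 0.17, 0.03 and −0.46 (SE 0.11 each), and the day 19 value was 0.63 below the day 6 value (difference −0.63, SE 0.15).

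The other R12 genes were Rgs10, a short RGS protein of neurons and microglia, and Rgs12. Rgs10 had 102, 102, 109.8, 99.8 and 117 normalized counts in 3K cultures at day 12, against 99.2, 96.5, 66.2, 86.6 and 81.7 in EV cultures, with the lowest 3K library just above the highest EV library. It overlapped at the other days, and its log2 fold changes were −0.10, 0.31 and 0.01 (SE 0.10 each). Of the microglia list, of interest for Rgs10, between 4 and 8 of the 11 genes found in the table were at 0 in all 5 libraries of a group, and C1qa, a complement gene of microglia, was at 0 in every library. The part of microglia in the Rgs10 values was not tested. Rgs12, a large scaffold, averaged 353 ± 29.8 in 3K cultures and 329 ± 25.3 in EV cultures at day 19 (SD, n = 5 each), with log2 fold changes of 0.04, 0.02 and 0.10 (SE 0.06 each).

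Rgs7 overlapped between vectors at every day. It averaged 486, 584 and 649 normalized counts in 3K cultures at days 6, 12 and 19, against 497, 580.0 and 667 in EV cultures, with log2 fold changes of −0.03, 0.01 and −0.04 (SE 0.05 each). None of the 3 measured partners and anchors of R7 proteins (of 5 listed) passed the threshold between 3K and EV at any day. Of all genes tested, 0.225%, 0.434% and 7.86% passed at days 6, 12 and 19. Rgs17 averaged 85.5, 111 and 139.97 in 3K cultures and 75.7, 119.6 and 156 in EV cultures, with log2 fold changes of 0.19, −0.12 and −0.16 (SE 0.11 each) and overlap at every day.

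Of the 11 other RGS genes listed, 10 were in the table and 6 passed the filter (Rgs6, Rgs9, Rgs13, Rgs19, Rgs20 and Rgs22). None of the 6 passed the threshold between 3K and EV at any day, beside 0.225%, 0.434% and 7.86% of all genes at days 6, 12 and 19. With shares that low, so few genes cannot show whether they differ from genes at large. Rgs5, the coding neighbour of Rgs4 on chromosome 13, is known from pericytes and had at most 1.81 normalized counts in any library. Rgs13, the neighbour of Rgs2, had 22.7, 19.7, 20.8, 34.4 and 24.9 in 3K cultures at day 19 and 21.6, 21.8, 19.5, 13.4 and 18.6 in EV cultures. Rgs18 and Rgs21 were at 0 in every library and Rgs1 had reads in 1 library.

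Control cultures show how the same genes moved with culture age, which is not the contrast that the set was put together around. The choice was not blind to it, since earlier results of these data were known. The EV libraries are also those of the 3K against EV contrast. Between day 6 and day 19 in EV cultures 8 of the 10 genes changed, 6 upward (Rgs2, Rgs4, Rgs7, Rgs8, Rgs14 and Rgs17) and 2 downward (Rgs10 and Rgs12), where 65.1% of all genes tested changed, 32.9% upward and 32.2% downward. Their median log2 fold change was 0.34, against 0.00 over all genes. Day 12 against day 6 gave 3 higher genes (Rgs7, Rgs14 and Rgs17) and 4 lower ones (Rgs4, Rgs10, Rgs12 and Rgs16), beside 44.5% of all genes, 23.3% upward and 21.2% downward. Day 19 against day 12 gave 7 higher (Rgs2, Rgs4, Rgs7, Rgs8, Rgs14, Rgs16 and Rgs17) and 0 lower, beside 45.4% of all genes, 23.6% upward and 21.7% downward. The R12 genes thus went both ways with age.

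In EV cultures Rgs4 dipped and recovered. Its log2 fold change was −0.21 (SE 0.04, limma adjusted p = 1e-04) for day 12 against day 6 and 0.33 (adjusted p = 5.5e-08) for day 19 against day 12. Over the whole interval it was 0.12 (adjusted p = 0.0088) with 4 of 5 day 19 libraries above all day 6 libraries. That small gain was 0.072 with adjusted p = 0.13 where libraries were scaled to equal totals. Rgs16 followed the same course more widely, with −1.48 (SE 0.25, adjusted p = 1.2e-05) for day 12 against day 6, 1.53 (adjusted p = 6.2e-06) for day 19 against day 12 and 0.05 (adjusted p = 0.86) overall. Rgs2 stayed level until day 12 (0.05, adjusted p = 0.69) and was 0.86 higher at day 19 than at day 12 (SE 0.08, adjusted p = 3.5e-10). Rgs8 did likewise, with −0.12 (adjusted p = 0.56) and then 0.90 (SE 0.16, adjusted p = 2e-05).

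Rgs14 and Rgs17 climbed through both intervals in EV cultures. Rgs14 averaged 67.5, 107 and 160.3 normalized counts at days 6, 12 and 19, and was 1.25 higher on the log2 scale at day 19 than at day 6 (SE 0.11, adjusted p = 1e-11). Rgs17 averaged 75.7, 119.6 and 156 and was 1.05 higher (SE 0.11, adjusted p = 6e-10). Rgs7 gained 0.42 (SE 0.05, adjusted p = 1.3e-08). Of its partners Gpr158, a membrane anchor of R7 complexes, gained 2.80 (adjusted p = 5.5e-21) and Rgs7bp, another anchor, 0.78 (adjusted p = 5.5e-05). Gnb5, the gene of Gβ5, was lower at day 12 than at day 6 (−0.26, adjusted p = 0.00039). It was higher at day 19 than at day 12 (0.21, adjusted p = 0.0028) and did not pass the threshold for day 19 against day 6. Rgs10 fell by 0.57 (SE 0.10, adjusted p = 1.1e-05), with −0.68 (adjusted p = 1.6e-06) by day 12 and 0.11 (adjusted p = 0.38) after it, and Rgs12 fell by 0.28 (SE 0.06, adjusted p = 0.00016). Rgs3 had 0.25 (SE 0.16, adjusted p = 0.17). Of the 6 other RGS genes measured, Rgs20 (0.60, adjusted p = 4.4e-08), Rgs13 (0.64, adjusted p = 0.0072) and Rgs22 (1.28, adjusted p = 0.025) were higher at day 19 than at day 6. Rgs22, with few reads, did not pass with the mitochondrial share as covariate (0.77, adjusted p = 0.2) or without replicate 5 of EV day 6 (1.14, adjusted p = 0.062).

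Glial markers moved with age over the same interval. In EV cultures 8 of 10 astrocyte markers were higher at day 19 than at day 6 and 0 lower. Of all genes tested, 32.9% were higher and 32.2% lower. The summed level of the astrocyte markers ran from 37229 to 41920.5 at day 19 and from 12102 to 13219.7 at day 6. Of 10 oligodendrocyte lineage markers 3 were higher and 5 lower, and the 2 endothelial and mural markers measured were both higher, while Cldn5 and Cdh5 were at 0. The part of these cells in the RGS values was not tested.

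**Figure D3:**
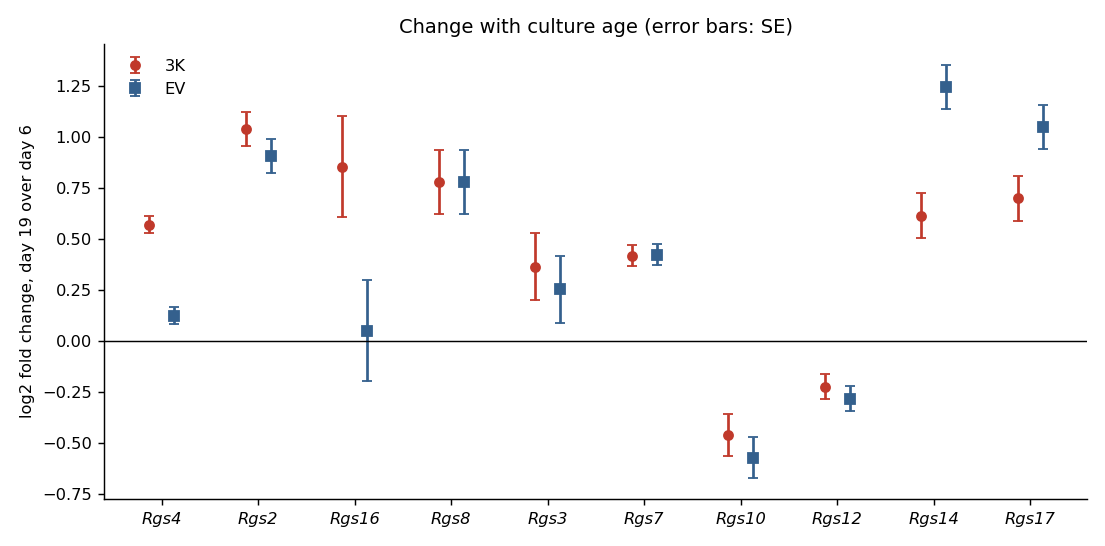
Log2 fold change of day 19 over day 6 (vertical axis) for the 10 RGS genes, in 3K cultures (red circles) and EV cultures (blue squares), with SE as error bars. Rgs4 stands at 0.57 in 3K and 0.12 in EV, Rgs14 at 0.62 in 3K and 1.25 in EV, and Rgs2, Rgs7, Rgs8, Rgs10 and Rgs12 lie close together in both.

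Set beside this course, the 3K values are a description. Rgs4 was 0.57 higher at day 19 than at day 6 in 3K cultures (SE 0.04), against 0.12 in EV cultures, and the dip at day 12 was −0.06 in 3K cultures, against −0.21 in EV cultures. Rgs16 was 0.86 higher in 3K cultures and 0.05 higher in EV cultures (SE 0.25 each). Rgs14 gained 0.62 in 3K cultures and 1.25 in EV cultures (SE 0.11 each), of which 0.10 in 3K cultures and 0.58 in EV cultures came between days 12 and 19. Rgs17 gained 0.70 in 3K cultures and 1.05 in EV cultures. The course of Rgs2 (1.04 in 3K cultures, 0.91 in EV cultures), Rgs7 (0.42 in both), Rgs8 (0.78 in both) and Rgs12 (−0.22 in 3K cultures, −0.28 in EV cultures) lay close under both vectors.

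Likeness to Rgs4 was measured as Pearson's r of log2(normalized count + 1) over the 30 libraries, which share their 6 groups, so r mainly follows the group means. Of 12910 other genes the 5 most like Rgs4 were Dusp1 (r = 0.90), a phosphatase of MAP kinases, Arid5a (0.87), the neurotrophin Bdnf (0.87), Fam150b (0.86) and Sh3bp5l (0.86). Fam150b had few reads before day 19, with means of 8.6 in 3K and 6.1 in EV cultures at day 6. At day 12 its means were 8.3 and 4.6, and at day 19 they were 80.5 and 23.3. Its group means thus reached the filter level of 10 only at day 19, where Rgs4 was also highest. Rgs2 had r = 0.81 and ranked 17, and Rgs16 had 0.72 and ranked 87. The rest of the 10 were further off, with 0.55 for Rgs8 and between −0.05 and 0.34 for the others. After each day's mean was subtracted, which leaves the difference between vectors, none of the 5 genes was kept and the first 5 were Lpcat1, Tmem50b, Rnf145, Fam102b and Snn. Rgs2 then had r = 0.81 and ranked 33, Rgs16 0.57, and Rgs14 −0.40.

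**Figure D4:**
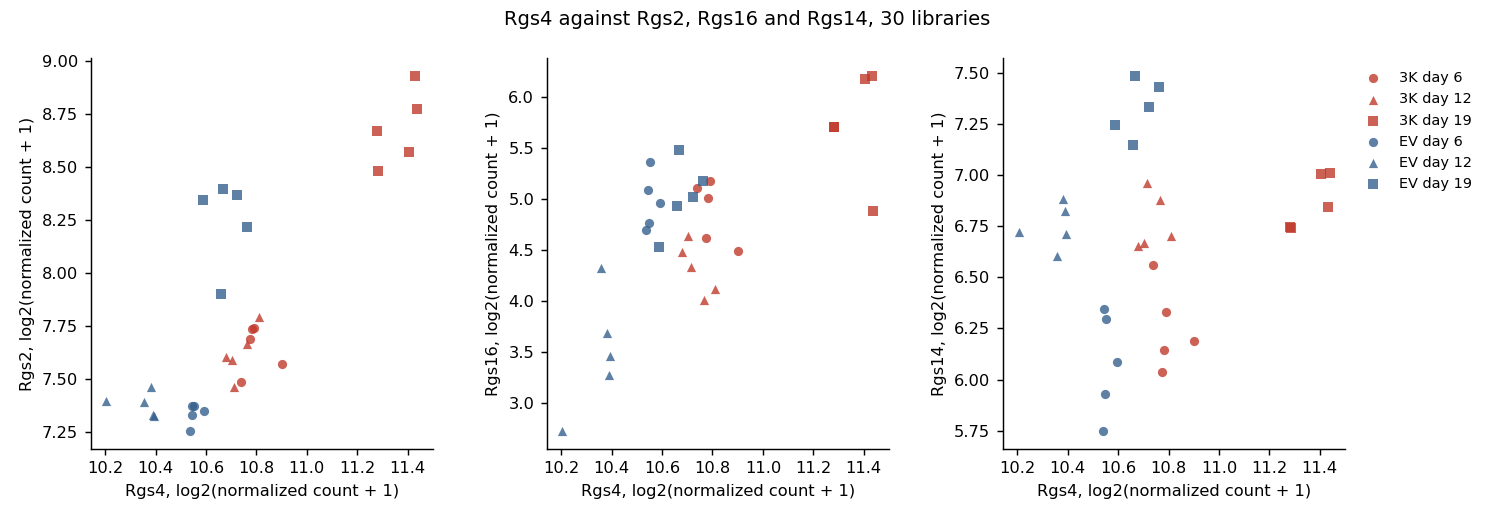
Rgs4 (horizontal axes) against Rgs2, Rgs16 and Rgs14 (vertical axes), all as log2(normalized count + 1), 1 point per library, red for 3K and blue for EV, with circles, triangles and squares for days 6, 12 and 19. Rgs2 (r = 0.81) and Rgs16 (r = 0.72) are highest where Rgs4 is highest, in 3K at day 19, and Rgs14 (r = 0.18) is highest in EV at day 19.

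Dusp1 belongs to the immediate early genes, transcripts that neurons raise quickly after stimulation, and part of that list was higher beside Rgs4 and Rgs2. Of 17 measured genes of 18 listed, 7 were higher in 3K than in EV cultures at day 19 and 0 lower, where 3.78% of all genes were higher. Among them were Nr4a2 (log2 fold change 1.14, adjusted p = 1.1e-10), Dusp1 (0.66, adjusted p = 6.2e-07) and the stress-responsive factor Atf3 (1.91, adjusted p = 6.5e-06). Dusp1, counted here, had been named first for its likeness to Rgs4. Other genes of the list did not pass at day 19. Examples, named after their values were seen, are Egr1 (−0.27), Arc (0.15), Npas4 (0.24) and Nr4a1 (0.08). At day 12 Fos alone passed (0.92, adjusted p = 0.001). The summed level of the list was 4849 to 6371 in 3K cultures and 3565 to 5166 in EV cultures at day 19, which overlapped. Its part in the RGS values was not tested.

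The G-protein machinery on which RGS proteins act was counted in the same way. Over 8 lists of partners, subunits, effectors and receptors, 0 of 95 measured genes passed the threshold at day 6, 1 at day 12 and 11 at day 19 (6 higher and 5 lower), beside 0.225%, 0.434% and 7.86% of all genes tested. None of 10 measured Gα subunits and none of 14 effectors passed at day 19. Gnas, the Gαs gene, has 2 rows in the table and was not examined. Of 11 measured Gβ and Gγ subunits, Gng3, a neuronal Gγ, averaged 1999 ± 148 normalized counts in 3K cultures and 1419 ± 86.7 in EV cultures (SD, n = 5 each), a log2 fold change of 0.49 (adjusted p = 4.6e-08), and was already higher at day 12 (0.28, adjusted p = 0.0038). Gng12 was the other (0.41, adjusted p = 0.016).

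Of 13 measured receptors listed as Gq-coupled, 1 was higher at day 19, the thrombin receptor F2r (log2 fold change 0.29, adjusted p = 0.019). Of 24 Gi-coupled receptors 3 were higher and 3 lower, where 3.78% of all genes were higher and 4.08% lower. Adora1, the adenosine A1 receptor, was higher by 0.24 (adjusted p = 0.0023), Adra2c, an adrenergic receptor, lower (−0.33, adjusted p = 0.013), and Lpar1, a lysophosphatidic acid receptor with few reads, higher (27.1 ± 13.8 normalized counts in 3K cultures and 10.9 ± 5.79 in EV cultures, SD, n = 5 each, adjusted p = 0.033). Among 13 measured proteins with an RGS homology domain outside the family, Grk2, a kinase that desensitises receptors, was lower (−0.22, adjusted p = 0.012). Among 7 other modulators of Gα, Rap1gap was lower (−0.16, adjusted p = 0.039). These lists' medians lay between −0.05 and 0.04 at day 19, beside −0.003 over all genes.

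**Figure D5:**
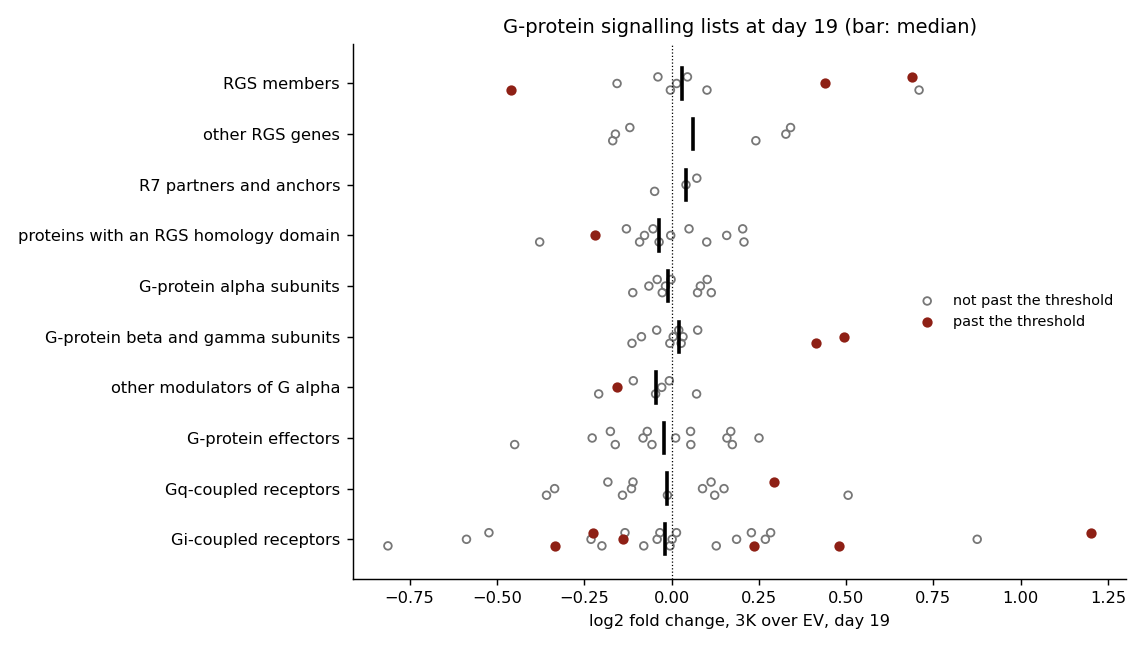
Log2 fold change of 3K over EV at day 19 (horizontal axis) for the measured genes of 10 G-protein signalling lists (rows), with filled points for genes past the threshold, open points for the rest and a black bar at each list's median. The medians lie near 0 in every list, and the RGS genes spread from −0.46 for Rgs14 to 0.71 for Rgs16.

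Some markers of other cells also differed at day 19. Of 10 astrocyte markers 4 were lower and 0 higher, beside 4.08% and 3.78% of all genes. Aldoc was at −0.52 (adjusted p = 1.8e-07) and Gfap, named after its value was seen, was at 0.62 (SE 0.21) without passing the threshold, with a summed level of 34695 to 40749 in 3K cultures and 37229 to 41920.5 in EV cultures. Cnp alone of 10 oligodendrocyte lineage markers passed the threshold, and was higher (0.35, adjusted p = 0.047) with libraries that overlapped. The summed level of that list also overlapped, at 5925 to 7123 in 3K cultures and 6169 to 7130 in EV cultures. Notch3 was the 1 of 2 measured endothelial and mural markers that passed, and was lower (−0.34, adjusted p = 0.035). The mitochondrial share of reads was 4.50% to 5.14% in 3K cultures and 3.94% to 4.56% in EV cultures. With that share as a covariate the log2 fold changes of Rgs4, Rgs2 and Rgs14 at day 19 were 0.70, 0.42 and −0.46. Without it they were 0.69, 0.44 and −0.46. Since the share was itself higher on average in 3K cultures, such a fit cannot separate it from the vector. Its part in the RGS values was not tested.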

How the data were processed

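RNA was made into 30 SMART-Seq v4 and Nextera XT libraries, and 50-base read pairs were aligned with STAR 2.5.2b to Rnor_6.0 and counted with RSEM 1.2.31 by the authors, per the labels and the study's methods. The deposited signal values are gene counts divided by DESeq2 size factors. Multiplying by the recovered factors (0.801 to 1.18) gave whole reads for 100% of values within 0.01, so that depth was known. Levels were not compared between genes, since the values are not per length.

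Genes with at least 10 normalized counts in at least 5 libraries (12911 of 20634 with a read) were fitted with limma 3.58.1 (R 4.3.3) on log2(normalized count + 1), with 6 group means, all 30 libraries, a trended empirical Bayes variance and Benjamini-Hochberg adjustment over all genes, two-sided at 0.05. The fit was tested on simulated data. The 10 genes and the 16 lists (218 genes, 5 of them not matched) were chosen with earlier results of these data known. All 10 genes and the other RGS genes are named, from each other list up to 3 genes past the threshold with the smallest adjusted p (some of these are not reported here), and for likeness the 5 genes with the highest r. The alternatives were edgeR 4.0.16 and DESeq2 1.42.0 on recovered reads, pseudocounts of 0.5 and 5, no filter or a minimum of 50, equal totals, equal upper quartiles, only the groups compared, a replicate block, the mitochondrial share as covariate, and each library left out. Promoter sequences are from RefSeq (GRCr8), and 10 of 10 genes matched by symbol. No position from GRCr8 was set against the files' build.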

Additional observations from a re-analysis of the deposited data

Results flagged for a closer look

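In 4 of 60 gene and group sets of 5 libraries a single library lay far from the others by Dixon's criterion, about as many as chance gives at 1 in 20. Rgs4 had 1544 normalized counts in replicate 3 of EV at day 6, with the next library at 1499, and 1179 in replicate 3 of EV at day 12, with the next at 1309.8. Both lie on the EV side of every 3K library of their day. Rgs8 had 115.5 in replicate 3 of EV at day 6, with the next at 83.5. Rgs17 had 141.9 in replicate 2 of 3K at day 12, with the next at 109.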

How the results depend on the processing

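The number of RGS genes past the threshold kept its value of 1 (day 6), 1 (day 12), 7 (EV day 12 against 6), 7 (EV day 19 against 12) and 8 (EV day 19 against 6) under every alternative, except for 4 counts, and at day 19 was 3 or 4. Day 12 without replicate 5 of EV gave 2 (Rgs4 and Rgs16), and EV day 19 against 6 with equal totals gave 7 (without Rgs4). A minimum of 50 normalized counts, which leaves Rgs16 out, gave 6 for both shorter EV intervals. Leaving out each library gave 1 to 1 at day 6, 1 to 2 at day 12, 3 to 4 at day 19, 7 to 7, 7 to 7 and 8 to 8. With the mitochondrial share as covariate the day 19 against day 6 change in EV was −0.070 for Rgs16 and 0.77 for Rgs22 (adjusted p = 0.2), and the 3K against EV change of Rgs22 at day 19 was −0.076. In that interval Rgs16 ran from −0.061 (without replicate 2 of EV day 19) to 0.18 with a library left out, and Rgs22 was 1.14 (adjusted p = 0.062) without replicate 5 of EV day 6, and Rgs19 was −0.046 with equal totals and −0.022 with equal upper quartiles, and ran from −0.034 (without replicate 1 of EV day 19) to 0.071. The causes were not tested. Over all genes, 29 passed at day 6 with limma, 56 with DESeq2 and 14 with only the groups compared, and 56, 95 and 106 at day 12. Same-numbered 3K and EV libraries deviated together at r between −0.013 and 0.040 at day 6, −0.12 and −0.014 at day 12 and −0.012 and 0.19 at day 19, where 3 of 5 correlated best with their own number. Not every pair was over 0.1, so the numbers were not taken to pair the samples. The replicate block left 1, 1 and 3 RGS genes past the threshold at days 6, 12 and 19. Few reads limit Rgs16, with 5.61 to 19.0 normalized counts in EV at day 12.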

Other observations

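In EV cultures at day 19 against day 6, where 32.9% of all genes were higher and 32.2% lower, 8 of 13 measured Gq-coupled receptors were higher and 2 lower, led by Cckbr, a cholecystokinin receptor (162.6 ± 14.7 normalized counts at day 19 and 25.3 ± 4.10 at day 6, SD, n = 5 each, log2 fold change 2.65, adjusted p = 2.5e-15), while the neurotensin receptor Ntsr1 was lower (−1.20, adjusted p = 6.8e-11). Of 24 Gi-coupled receptors 10 were higher and 3 lower, with both GABA-B subunits up (Gabbr1 0.74, adjusted p = 2.4e-16, and Gabbr2 1.02, adjusted p = 2.4e-13). Of 14 effectors 7 were higher and 2 lower, led by the adenylyl cyclases Adcy2 (1.17, adjusted p = 1.3e-15), Adcy3 (0.99, adjusted p = 7.9e-15) and Adcy9 (127 ± 13.9 normalized counts at day 19 and 44.2 ± 4.65 at day 6, adjusted p = 1.1e-10).

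The subunits went both ways over the same interval, as genes at large did (32.9% higher and 32.2% lower). Of 10 measured Gα subunits 3 were higher and 5 lower, among them Gnai3 (−0.81, adjusted p = 6.7e-13) and the olfactory and striatal Gnal (−0.89, adjusted p = 7.1e-09). Of 11 Gβ and Gγ subunits 1 was higher (Gng13, 2.38, adjusted p = 2.1e-13) and 5 were lower, with Gng2 at 3240.3 ± 95.3 normalized counts at day 19 and 6066 ± 115 at day 6 (log2 fold change −0.90, adjusted p = 3.9e-21). Of 7 other modulators of Gα 2 were higher and 3 lower, and Gpsm1, which binds inactive Gαi as Rgs14 does, was lower (−0.94, adjusted p = 2.6e-17). Of 13 proteins with an RGS homology domain 5 were higher and 2 lower.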
